A study of Drosophila melanogaster and Drosophila simulans and Drosophila erecta with 10 samples.

Results

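The cytoplasmic ribosomal protein genes of Drosophila melanogaster were described in testes of flies with a miR-983 knockout (label miR-983KO) and of control flies. Members were the genes whose FlyBase symbol starts with RpL or RpS and a digit, together with RpLP0, RpLP1, RpLP2 and sta, but without RpL22, RpL37, RpS19, RpS10 and a further gene, and without their paralogs. The gene name table holds 82 such genes, of which 78 are listed among the 7326 genes of the expression table, 46 of the large and 32 of the small subunit. RpL19, RpL27A, RpL31 and RpS12 are not listed, and neither are the translation factor genes eEF1alpha1, eEF1alpha2 and eEF5. The table holds no value below about 1, so genes with little or no signal may be missing from it. Why these named genes are absent is not given, so their absence says nothing on their level. Besides the canonical genes the rule takes in duplicates and relatives such as RpL10Aa, RpL7-like, RpL24-like and RpS28-like.

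Testes came from 3- to 5-day-old adults reared at 25 °C. The knockout and the control are represented by 2 RNA-seq libraries each, which the series calls biological replicates. The sources used here do not give the kind of knockout allele, the control stock or the number of flies per library. The same series holds RNA-seq of D. simulans testes, whose identifiers match no symbol and which was therefore not used here. Values are log2 expression values as the authors deposited them, so that a difference of 1 is a 2-fold change, and the scaling behind them and the sequencing depth are unknown. Comparisons use limma, a linear model fitted to every gene of the table together, with Benjamini-Hochberg adjustment over all 7326 genes and a threshold of 0.05.

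A ribosome consists of a large and a small subunit, each an rRNA scaffold covered by ribosomal proteins. The small subunit reads the mRNA and the large subunit joins amino acids. Most of these proteins are needed in every cell and in fixed proportions, and in Drosophila the loss of a single copy of many of their genes gives the Minute phenotype of slow development and short, thin bristles. Several ribosomal proteins have a duplicate gene, and some duplicates are used mainly in the germline.

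The targeted gene, mir-983, is not among the listed genes, so the genotype labels were not checked on it. The libraries hold the markers of testis. The late germline list (aly, dj, ProtA, Mst87F and others) had 19 of 19 genes listed, with a summed linear value of 3163 and 3403 in the knockout libraries, against 3243 and 3412 in the control libraries. Most of these sums comes from dj, Mst87F, Mst98Ca and Mst98Cb, at 8.70 to 9.80. Of the 19 genes 0 passed limma and 4 had an unadjusted p under 0.05, where 12.7% of all genes did. In the knockout mia (0.45) and ProtB (0.25) were higher, and t-cup (-0.20) and nht (-0.19) lower. Of the early germline list 2 of 8 genes were listed, aub and bgcn, with sums of 11.6 and 10.9 in the knockout libraries and 11.4 and 10.6 in the controls; the defining genes vas, nos and bam were not listed. The knockout libraries were not alike in genes of other tissues. Acp95EF, an accessory gland gene and the 1 listed of 10 on that list, had 4.42 in knockout replicate 1 and 6.34 in knockout replicate 2, against 4.16 and 4.12 in the controls, and SP, Acp26Aa and Acp36DE were not listed.

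Between genotypes the mean values of the ribosomal protein genes differed little. None of the 78 members passed the limma test (0 genes), where 2.28% of all genes did, 1.05% higher and 1.23% lower in the knockout. An unadjusted p under 0.05 was reached by 2 members, both lower, against 12.7% of all genes (5.28% higher and 7.41% lower). The authors' deposited table marks 0 members as past p 0.05 by DESeq2, against 1.65% of all genes. The median log2 fold change, knockout over control, was -0.012 over the members and -0.011 over all genes. The quartiles were -0.044 and 0.040 among members and -0.089 and 0.060 among all genes. The SD of the fold change was 0.079 among members and 0.19 among all genes. Knockout and control values did not overlap in 11 members (14.1%, against 42.3% of all genes), with 5 higher (6.41%, against 17.9%) and 6 lower (7.69%, against 24.3%) in the knockout. Knockout replicate 1 lay below both controls in 71.8% of members and knockout replicate 2 above both in 69.2%. Where both hold, the groups overlap and the opposite shifts offset each other in the knockout mean. These shares and fold changes therefore do not show that each knockout library resembled the controls.

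The 95% interval of the fold change stayed within a 1.25-fold change in either direction for 75 of the 78 members, with a median standard error of 0.073. This bound was no part of the planned comparisons, and the upper end for RpS20 (0.32 on the log2 scale) lies close to it. The share over all genes was not taken. Over all members the intervals ran from -0.62 to 0.32 on the log2 scale. These intervals rest on 2 libraries per genotype.

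The members' values in each library run from about 2 to 8 on the deposited log2 scale, and their order was almost the same in each. Across the 78 members Spearman's rho between any 2 libraries was 0.991 to 0.993, as a description across genes. RpL41, which encodes the smallest ribosomal protein, had 8.13 and 8.28 in the knockout libraries and 8.15 and 8.21 in the controls. RpLP2, an acidic protein of the stalk, had 7.38 and 7.59 in the knockouts, against 7.34 and 7.51 in the controls. In both genes the ranges of the genotypes overlap.

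RpL10Aa, a duplicate of RpL10Ab, had 6.95 and 7.10 in the knockouts and 6.89 and 7.09 in the controls. RpS18, of the small subunit head, had 6.37 and 6.56 in the knockouts against 6.38 and 6.47 in the controls, and RpL39, a small protein that lines the exit tunnel, had 6.29 and 6.40 in the knockouts against 6.39 and 6.39 in the controls. At the other end of the deposited scale stood RpL7-like, RpS15Ab, RpL34a, RpS28a and RpL28, with RpL28 at 3.99 and 4.06 in the knockouts and 4.01 and 4.11 in the controls. Whether the deposited values are corrected for transcript length is not given, so this order describes the table and not the abundance of the transcripts.

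**Figure D1:**
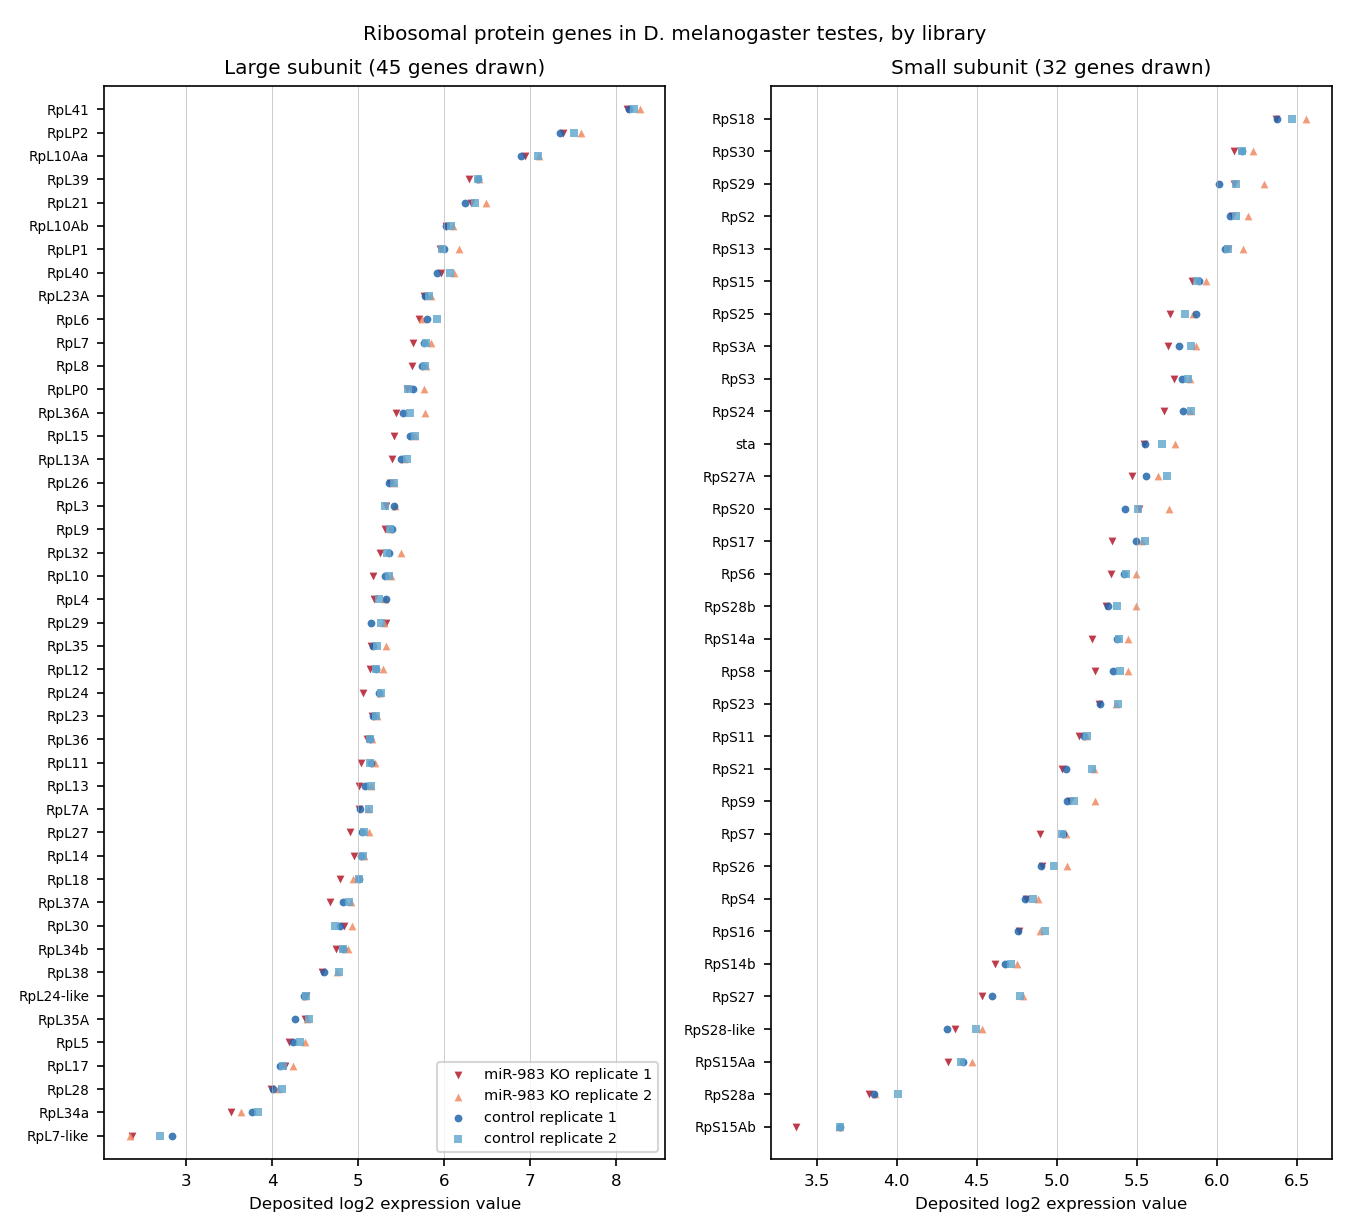
Deposited log2 expression value (horizontal axis) of 77 of the 78 ribosomal protein genes in the 2 knockout libraries (triangles) and the 2 control libraries (circle and square), with 45 large subunit genes on the left and 32 small subunit genes on the right, sorted by mean. Within a gene the 4 libraries lie close together compared with the distance between genes, and knockout replicate 2 is often the right-most point and knockout replicate 1 the left-most.

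The set as a whole lay on opposite sides of the controls in the 2 knockout libraries. Over the members, the median of knockout replicate 1 minus the control mean was -0.074 and that of knockout replicate 2 was 0.058. Over all genes the same medians were -0.015 and -0.009. Knockout replicate 1 lay below both controls in 56 of 78 members (71.8%, against 42.1% of all genes), and knockout replicate 2 lay above both controls in 54 (69.2%, against 34.2%). The opposite order, replicate 1 above both controls or replicate 2 below both, held for 6 members each (7.69%, against 33.4% and 40% of all genes). Of the 4 libraries, knockout replicate 1 was the lowest in 55 members (70.5%, against 32.2%) and knockout replicate 2 the highest in 53 (67.9%, against 26%).

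Set against each other, knockout replicate 2 was above knockout replicate 1 in 75 of 78 members (96.2%, against 54% of all genes). The median difference was 0.15 on the log2 scale, which is 1.11-fold, with quartiles of 0.093 and 0.19. It reached at least 0.1 in 58 members (74.4%, against 26.9% of all genes). The control libraries differed less. Control replicate 2 was above control replicate 1 in 60 members (76.9%, against 47.1%), by a median of 0.049, and by at least 0.1 in 20 members (25.6%, against 19.1%). No test was made of these differences, since each compares 1 library with another.

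The median fold change of the set therefore depends on the libraries used. Without knockout replicate 1 it was 0.058, with 69 of 78 members above 0, and without knockout replicate 2 it was -0.074, with 9 above 0. Without control replicate 1 it was -0.031 and without control replicate 2 it was 0.018. No member passed the limma test without either knockout library or without control replicate 1 (0 genes each), with 6 members at an unadjusted p under 0.05 without knockout replicate 1 (7.69%, against 12.4% of all genes), 9 without knockout replicate 2 (11.5%, against 15%) and 2 without control replicate 1 (2.56%, against 10.5%). Without control replicate 2, 1 member passed, RpL7-like. With a library left out 1 genotype holds a single library. Limma then draws each gene's spread from the pair of the other genotype and from a trend over all genes. The share of all genes that passed was 1.92% and 1.61% without knockout replicate 1 and 2, and 4.15% and 3.54% without control replicate 1 and 2 (304 and 259 genes, against 167 with the full set of libraries).

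**Figure D2:**
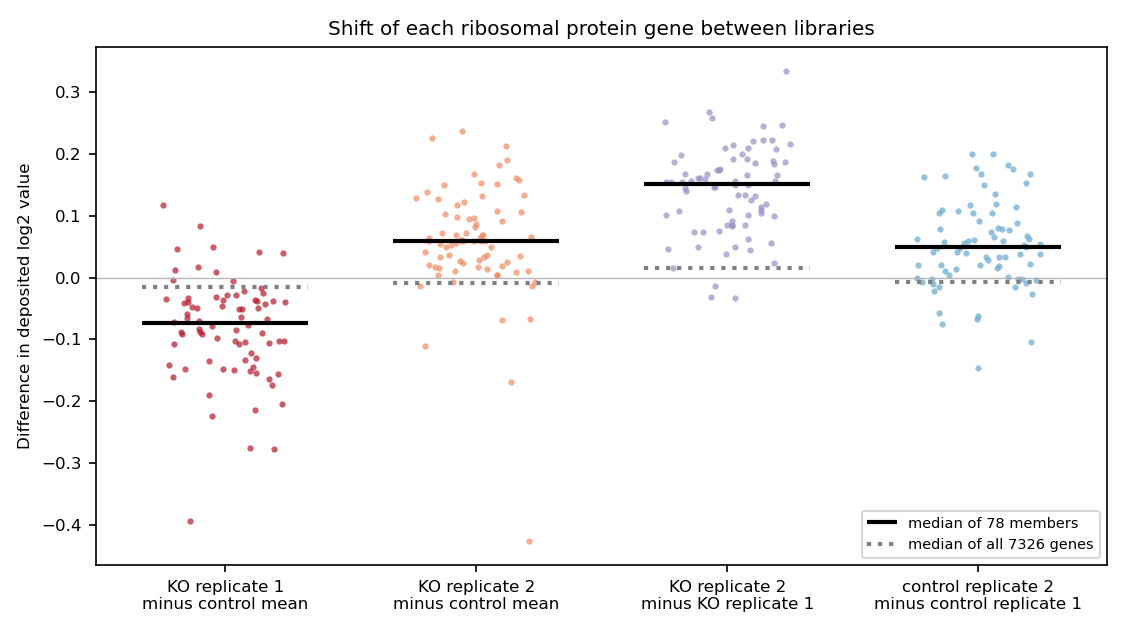
Difference in deposited log2 value (vertical axis) for each of the 78 members between the libraries named below each column; a black line is the median of the members and a dotted grey line the median of all 7326 genes. The members sit mostly below 0 in knockout replicate 1 (median -0.074) and above 0 in knockout replicate 2 (median 0.058), and 75 of 78 are above 0 when knockout replicate 2 is set against knockout replicate 1.

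Both subunits showed the shift. The median of knockout replicate 1 minus the control mean was -0.074 for the 46 large subunit genes and -0.072 for the 32 small subunit genes. In knockout replicate 2 the medians were 0.056 and 0.063. All 32 small subunit genes had a higher value in knockout replicate 2 than in knockout replicate 1, as did 43 of the 46 large subunit genes. The 3 exceptions were RpL7-like, RpL24-like and RpL29, with differences of -0.034, -0.014 and -0.031.

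Genes at the level of the members differed between the knockout libraries as well, but by less. When all genes were ranked by mean value into 10 groups of equal size, the median difference between knockout replicate 2 and knockout replicate 1 was 0.0082 in group 8, 0.041 in group 9 and 0.080 in group 10, the highest. Most members, 71 in number, fall in these groups (18, 40 and 13). In group 8 the members' median was 0.15, against 0.0048 among the other genes of the group. In group 9 it was 0.16 against 0.034, and in group 10 it was 0.15 against 0.078. The members' median was thus about the same in each of these groups, while that of the other genes was larger where the level was higher. After cyclic loess or quantile normalization the members' median was 0.12 under each, and 74 of 78 were higher in knockout replicate 2. The median over all genes was then 0.0067 and 0.0053. Medians of the level groups were not taken after these normalizations. On the values as deposited, knockout replicate 1 minus the control mean had a members' median of -0.084, -0.090 and -0.033 in groups 8, 9 and 10. Among the other genes of these groups it was -0.0022, -0.019 and -0.058. In group 10 knockout replicate 1 lay below both controls in 5 of 13 members (38.5%, against 57.4% of the other genes). For knockout replicate 2 the members' medians were 0.059, 0.045 and 0.11, against -0.0064, 0.0052 and 0.012.

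The stalk of the large subunit recruits and activates the elongation factors. RpLP0, its base, had 5.57 and 5.77 in the knockouts, against 5.64 and 5.58 in the controls. RpLP1, an acidic stalk protein, had 5.96 and 6.18 in the knockouts, against 6.0 and 5.97 in the controls. RpL12, beside the stalk base, had 5.13 and 5.29 in the knockouts and 5.21 and 5.20 in the controls. With RpLP2, each of the 4 was highest in knockout replicate 2, by 0.15 to 0.22 over knockout replicate 1. The fold changes of the 4 genes were between 0.0050 for RpL12 and 0.079 for RpLP1 (limma adjusted p from 0.79 to 0.988).

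RpL5 and RpL11 bind the 5S rRNA and enter the ribosome with it. RpL5 had 4.19 and 4.38 in the knockouts, against 4.24 and 4.32 in the controls, and RpL11 had 5.04 and 5.19 in the knockouts, against 5.15 and 5.14 in the controls. RpL40 and RpS27A are made as fusions with ubiquitin. RpL40 had 5.96 and 6.11 in the knockouts and 5.92 and 6.07 in the controls, and RpS27A had 5.47 and 5.63 in the knockouts, against 5.56 and 5.69 in the controls. In the 4 genes the knockout libraries differed by 0.15 to 0.18 and lay on either side of at least 1 control.

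In the small subunit, RpS6, the target of S6 kinase, had 5.34 and 5.49 in the knockouts, against 5.42 and 5.43 in the controls. The product of sta, a protein of the laminin receptor family on the back of the small subunit, is involved in rRNA processing, and its gene had 5.55 and 5.74 in the knockouts, against 5.55 and 5.66 in the controls. Neither fold change passed (-0.012 ± 0.069 and 0.037 ± 0.079, SE; limma adjusted p = 0.971 and 0.919). Genes of the peptidyl transferase centre, RpL3, RpL8 and RpL10, and of the decoding centre, RpS15, RpS23 and RpS30, had median fold changes of -0.054 and 0.0065, and those of the mRNA entry channel, RpS2, RpS3 and RpS9, of 0.045. Each of these 9 genes was higher in knockout replicate 2 than in knockout replicate 1.

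The widest gap between the knockout libraries belonged to RpL36A, a protein near the exit site for tRNA, with 5.44 in replicate 1 and 5.77 in replicate 2, against 5.52 and 5.60 in the controls. RpS15Ab had 3.37 and 3.64 in the knockouts, against 3.65 and 3.64 in the controls, so that only replicate 1 stood clearly apart. RpS27, RpL37A and RpL15 followed, with gaps of 0.26, 0.25 and 0.25. Among the narrowest gaps were those of RpL24-like, RpL35A, RpL29 and RpL7-like, from -0.034 to 0.023. RpL24-like is a relative of RpL24 that in yeast acts in ribosome assembly and leaves before the ribosome is finished. It had 4.40 and 4.38 in the knockouts and 4.36 and 4.39 in the controls.

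**Figure D3:**
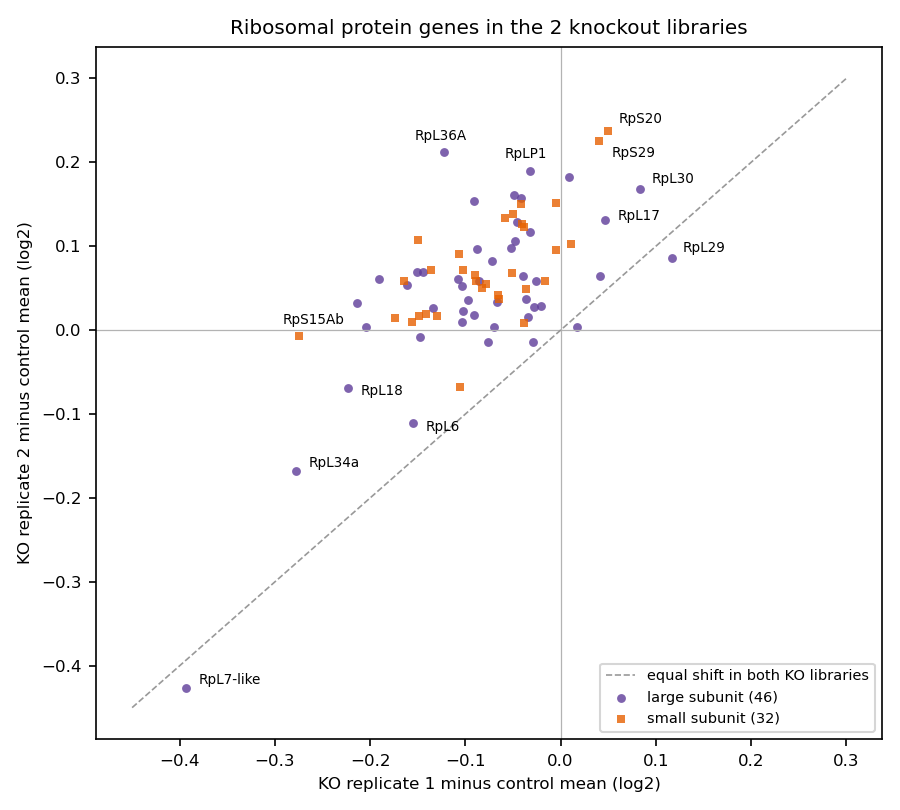
Each of the 78 members as knockout replicate 1 minus the control mean (horizontal axis, log2) against knockout replicate 2 minus the control mean (vertical axis, log2); circles are large and squares small subunit genes, and the dashed line marks equal values. Both axes share the same controls, and 75 points lie above the line, with RpL7-like, RpL34a, RpL18 and RpL6 low in both libraries.

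A few members departed from the set. RpL7-like, a relative of RpL7, had the lowest fold change of the members: 2.37 and 2.34 in the knockouts, against 2.84 and 2.69 in the controls, so that the groups do not overlap. Its log2 fold change was -0.41 ± 0.091 (SE; unadjusted p = 0.00221, limma adjusted p = 0.0751), with a 95% interval from -0.62 to -0.20. Without control replicate 2, with a single control left, its log2 fold change was -0.48. Over the 11 alternatives the fold change lay between -0.48 and -0.34. RpL34a had 3.52 and 3.63 in the knockouts, against 3.77 and 3.83 in the controls, while its duplicate RpL34b had 4.74 and 4.88 in the knockouts, against 4.82 and 4.82 in the controls. The fold change of RpL34a was -0.22 ± 0.076 (SE; limma adjusted p = 0.249). These 2 genes are the members with an unadjusted p under 0.05.

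RpL18 had 4.79 and 4.94 in the knockouts, against 5.01 in each control, and RpL6 had 5.70 and 5.75 in the knockouts, against 5.80 and 5.91 in the controls. In both genes the knockouts lay below the controls, with fold changes of -0.15 ± 0.070 and -0.13 ± 0.064 (SE) and limma adjusted p of 0.466 and 0.469. RpS15Ab (-0.14) and RpL24 (-0.10) complete the 6 lowest fold changes. RpL24 had 5.05 and 5.26 in the knockouts, against 5.25 and 5.26 in the controls, so its value rests on knockout replicate 1: without that library it was 0.0039.

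At the upper end, RpS20 had 5.52 and 5.70 in the knockouts, against 5.43 and 5.51 in the controls. RpS29, a zinc-binding protein of the small subunit, had 6.11 and 6.30 in the knockouts, against 6.02 and 6.12 in the controls. RpL30 had 4.84 and 4.92 in the knockouts, against 4.78 and 4.73 in the controls. Knockout and control values did not overlap in RpS20 and RpL30 and did in RpS29. Their fold changes were 0.14 ± 0.077, 0.13 ± 0.078 and 0.13 ± 0.065 (SE), with limma adjusted p of 0.527, 0.584 and 0.506.

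RpL29 had 5.33 and 5.30 in the knockouts, against 5.15 and 5.27 in the controls, and was the member most above the controls in knockout replicate 1, by 0.12. RpL21 and RpL17, a protein of the exit tunnel, were at 0.095 and 0.089, with adjusted p of 0.718 and 0.695. Genes of the upper and the lower end belonged to both subunits.

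**Figure D4:**
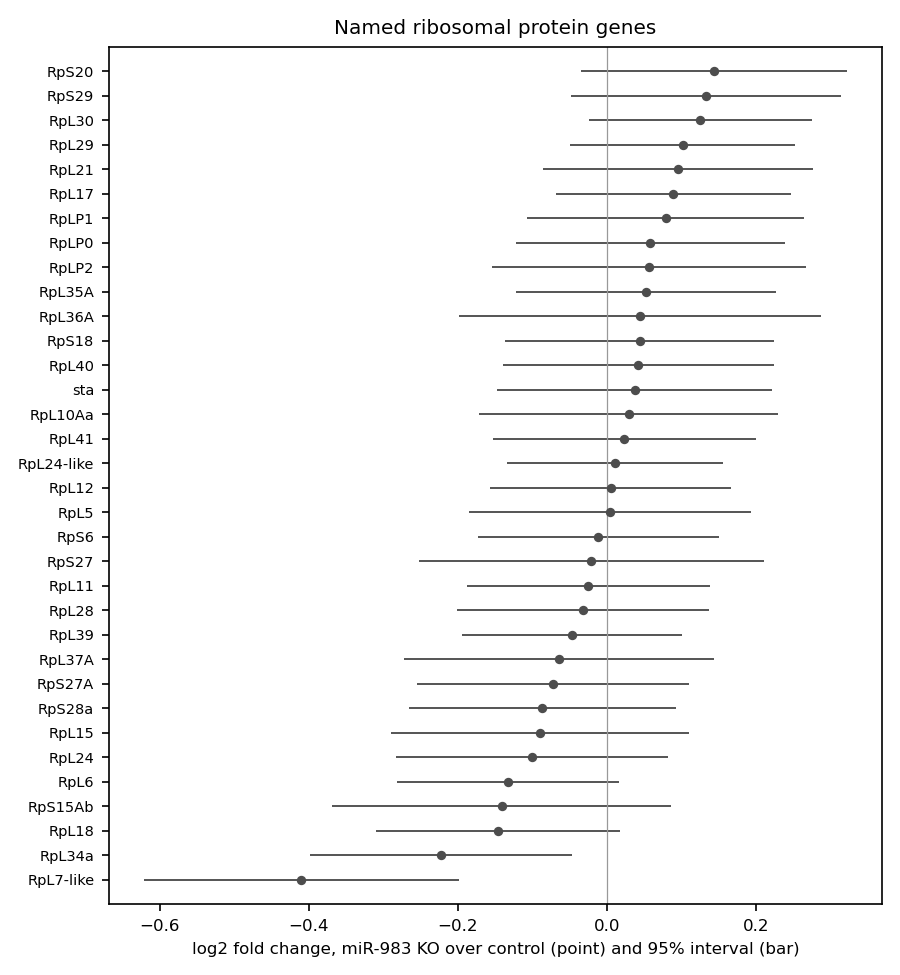
Log2 fold change, knockout over control (horizontal axis), with its 95% interval from limma for 34 members chosen by level, fold change, p, gap between knockout libraries or role. The intervals of RpL7-like and RpL34a exclude 0 before adjustment, and 32 include it.

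The values of each library were also taken relative to the median of the members in that library, which removes a shift common to the set. On this scale knockout and control values did not overlap in 32 members (41%, against 36.1% of all genes treated in the same way), with 19 higher (24.4%, against 18.8%) and 13 lower (16.7%, against 17.3%), shares near those of all genes. The members' medians were also subtracted from every other gene, so the share of all genes carries the members' shift. Before the subtraction it was 42.3%, and that of the members 14.1%. On this scale the log2 fold changes, knockout over control, of RpL7-like (-0.39), RpL34a (-0.20), RpS20 (0.16), RpS29 (0.15) and RpL30 (0.15) were the farthest from 0 among members. The difference between the knockout libraries had an SD of 0.071 among members, and that between the control libraries an SD of 0.071, values that the subtraction of a constant per library leaves as they were.

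Of the 78 members, 15 have a listed duplicate or a gene of like name: RpL7, RpL10A, RpL24, RpL34, RpS14, RpS15A and RpS28. Duplicates can be near-identical, as RpS14a and RpS14b are, and how reads matching both were counted is not given, so the value of each is uncertain. With these left out, a choice made after seeing the data, the median fold change of the other 63 was -0.0090, the medians of knockout replicates 1 and 2 against the controls were -0.067 and 0.061, and 0 genes passed limma, with 0 at an unadjusted p under 0.05. The 9 listed paralogs that the rule leaves out include 2 that passed, both lower in the knockout, where 2.28% of all genes passed. An unadjusted p under 0.05 was reached by 4 of them, against 12.7% of all genes. The other 2 of these were higher in the knockout, RpL22 at 0.20 ± 0.075 and RpS10a at 0.20 ± 0.067 (SE; limma adjusted p = 0.323 and 0.257). RpL22-like had 3.92 and 4.02 in the knockouts, against 4.36 and 4.51 in the controls (-0.46 ± 0.078, SE; limma adjusted p = 0.0268, and 0.0791 without knockout replicate 1), and RpL37-2 had 4.69 and 4.65 in the knockouts, against 4.96 and 5.01 in the controls (-0.32 ± 0.061, SE; adjusted p = 0.0479, and 0.0513 to 0.142 with any 1 library left out).

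Introns of ribosomal protein genes often carry small nucleolar RNAs, which guide the modification of rRNA. In assembly Release 6 plus ISO1 MT, 25 members have such a gene within their bounds, 57 in all, with 7 in RpS7. Their median difference between knockout replicate 2 and knockout replicate 1 was 0.14, and it was 0.15 in the 53 members without one. A gene of another kind overlaps 29 members, among them RpL18, RpL30, RpS20 and RpL7-like, and RpL12 and RpL39 overlap each other. Whether reads were assigned by strand is not given, so these values may hold reads of the neighbour.

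MicroRNA target predictions touched few members. In the authors' deposited table, TargetScan predicts miR-983-5p sites in 0 of the 78 members, against 5.36% of all genes. For miR-983-3p it predicts sites in 3, RpL24, RpL9 and RpS28-like (3.85%, against 4.78%), and PITA predicts miR-983-5p sites in 1, RpS29 (1.28%, against 4.01%). Their fold changes were -0.10 for RpL24, -0.045 for RpL9, 0.043 for RpS28-like and 0.13 for RpS29.

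Genes of protein synthesis and other large complexes were set beside the members. None of 39 listed initiation factors passed limma (0 genes; 1 at an unadjusted p under 0.05, eIF4E3, a testis form of the cap-binding protein, at -0.16 ± 0.063, SE). None of 7 elongation and termination factors, 14 ribosome biogenesis genes, 3 genes of RNA polymerase I transcription or 5 ribosome-associated genes passed (0 genes in each, with 0 at an unadjusted p under 0.05). Of 68 mitochondrial ribosomal protein genes 0 passed and 4 had an unadjusted p under 0.05. The median difference between knockout replicate 2 and knockout replicate 1 was 0.036 for initiation factors, 0.052 for elongation and termination factors, -0.0033 for ribosome biogenesis, -0.15 for the 3 genes of RNA polymerase I transcription, 0.036 for ribosome-associated genes and 0.064 for mitochondrial ribosomal proteins, against 0.15 for the members. It was 0.086 for 84 genes of oxidative phosphorylation and 0.013 for 32 proteasome genes. Rack1, a scaffold bound to the small subunit, had 5.01 and 5.13 in the knockouts and 5.09 and 5.10 in the controls.

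**Figure D5:**
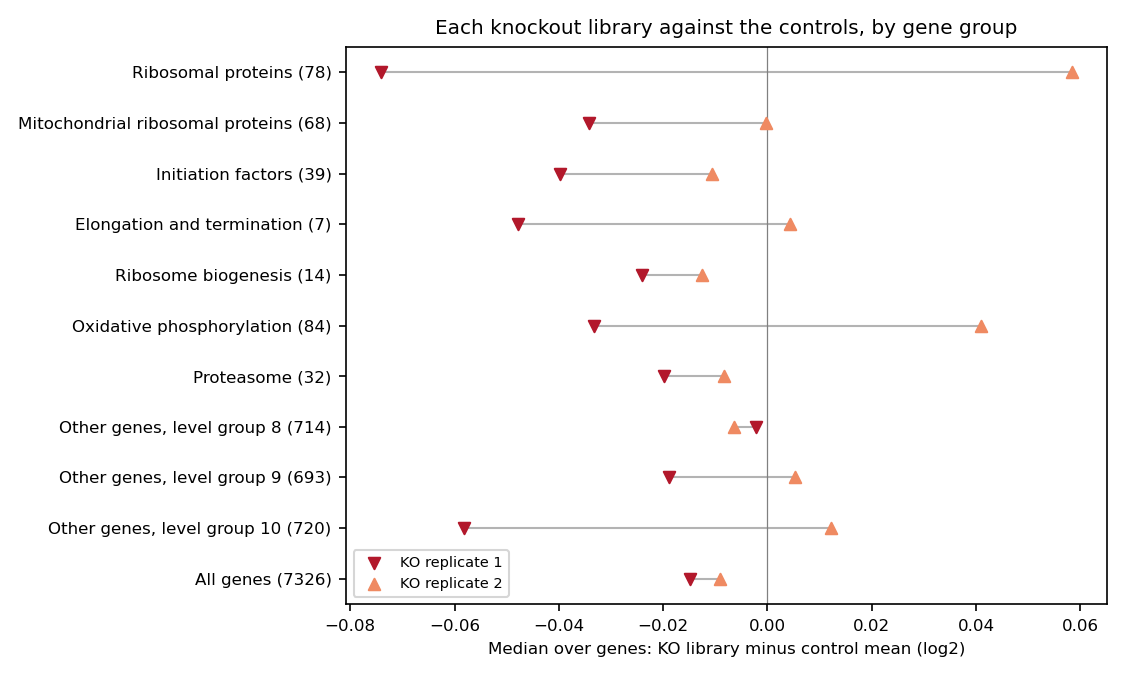
Median over the genes of each group of knockout library minus control mean (horizontal axis, log2), for knockout replicate 1 and knockout replicate 2, with the number of genes in brackets. Ribosomal proteins lie at -0.074 in replicate 1 and 0.058 in replicate 2, oxidative phosphorylation genes at -0.033 and 0.041, and all genes at -0.015 and -0.009.

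Markers of other cells also differed between libraries, within the knockouts and within the controls. The summed linear value of the 4 listed of 9 fat body genes was 907 and 1061 in knockout replicates 1 and 2, against 918 and 968 in the controls. That of the 5 listed of 11 muscle genes was 36.8 and 39.7 in the knockouts, against 43.1 and 33.7 in the controls, and that of the 3 listed of 8 somatic testis genes (so, upd1 and MtnA, a metallothionein gene) was 192 and 207 in the knockouts, against 152 and 165 in the controls. MtnA, with 7.53 and 7.65 in the knockouts and 7.17 and 7.30 in the controls, makes up nearly all of that sum, while upd1 and so had fold changes of -0.23 and -0.041. The accessory gland gene Acp95EF had the gap given above. None of the 3 ejaculatory bulb genes was listed, nor were the defining genes Lsp2, Yp1, tj and eya. Of the fat body genes, Tsf1 and NLaz passed limma as higher in the knockout (0.80 ± 0.11 and 0.62 ± 0.079, SE; adjusted p = 0.0103 and 0.00771). The others listed, Obp44a and Obp99a, did not pass, with fold changes of -0.0033 and 0.023. Obp44a had 9.26 and 9.49 in the knockouts, against 9.33 and 9.42 in the controls. With Obp99a it makes up most of the fat body sum. Of 15 listed heat shock genes 11 passed as lower in the knockout, among them Hsp70Ab, with 3.79 and 3.68 in the knockouts, against 4.57 and 4.85 in the controls (-0.97 ± 0.10, SE; adjusted p = 0.00326), and in 14 both knockout libraries lay below both controls, the exception being Hsp83. Single libraries differed in these genes too, by -0.35 to 0.24 between the knockouts and by -0.19 to 0.46 between the controls. The part of all these genes in the shift of the ribosomal protein genes was not tested, and in whole testes fewer cells of a type and less RNA per cell cannot be told apart.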

How the data were processed

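RNA was taken from testes with Trizol and made into Illumina libraries, per the labels' protocols. TopHat, a spliced-read aligner, is named without a version in the submitters' processing notes; the sources used here do not give the build, the annotation, the counter, the use of strand or how multi-mapped reads were treated. The authors deposited log2 expression values per gene and library, a log2 fold change that equals the difference of group means within 1.5e-06, and marks of predicted targets and of DESeq2 calls, per the file headers. No pseudocount or scaling is stated, and depth is unknown. No column was left unmapped (0 columns).

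The 4 D. melanogaster libraries were fitted in limma 3.58.1 (R 4.3.3), with genotype alone and an empirical Bayes trend, two-sided, checked on simulated data. The simulation drew genes independently, with no shift shared within a library, so it cannot show how the fit behaves under such a shift. No filter was applied. Symbols were matched for 7195 of 7326 identifiers. Members and gene lists were chosen with earlier results of these data known. Named were the 5 highest and lowest members, the 6 largest fold changes in each direction, the 8 smallest p, the 5 widest and narrowest knockout gaps, fixed role genes, and up to 4 genes per list by p; few of the last are printed. RpL3, RpL8, RpL9, RpL10, RpL34b, RpS28-like, RpS15, RpS23, RpS30, RpS2, RpS3, RpS9, Tsf1, NLaz, Obp44a, Obp99a, MtnA, upd1, so, Hsp70Ab, Hsp83 and Acp95EF were added after values were seen. So were mia, ProtB, t-cup, nht and the late germline genes with the highest values. P-values rest on the spread between these libraries, drawn toward a trend over all genes. Gene overlaps used assembly Release 6 plus ISO1 MT for neighbourhood alone. Alternatives were other scalings, priors, a pseudocount, a filter, a replicate block and leaving out each library. Values of 1 member are not reported here by name.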

Additional observations from a re-analysis of the deposited data

How the results depend on the processing

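No member passed limma under median scaling, quantile normalization, cyclic loess, no trend, a robust prior, a pseudocount of 1 or a mean log2 value of at least 3 (0 genes each). The share of all genes tested that passed was 2.53%, 2.03%, 2.06%, 1.82%, 2.62%, 2.25% and 2.11%, in the same order. The filter on mean log2 value kept 77 members and took out RpL7-like, with a mean of 2.56, so RpL7-like was not tested under it. The count over all genes was 85 with that filter, of 4031 genes tested, and 503 (6.87%) with a replicate block. Without 1 library it ranged from 118 to 304, and that of members from 0 to 1. Whether same-numbered libraries are paired is not given. Their deviations correlated at 0.15 over all genes and at 0.065 over the members. They had the same sign in 62.3% of all genes and 75.6% of the members. With 2 pairs these values cannot decide whether the libraries are paired. With the replicate block 1 member passed, RpL7-like (-0.41, adjusted p = 0.0165), as it did without control replicate 2, where the lone control is assumed to vary like the knockouts. The other 34 named members passed under none of the alternatives (lowest limma adjusted p 0.0669 over 408 fits). The median fold change of the members ranged from -0.074 to 0.058 with 1 library left out, and was 0.0037, 0.00029 and 0.00065 after median scaling, quantile normalization and cyclic loess, so its sign is not settled by these data. Knockout replicate 1 minus controls ranged from -0.10 to -0.045 and knockout replicate 2 minus controls from 0.031 to 0.080. Depth is unknown, so no counting error can be given.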
